A study of Mus musculus with 7 samples.

Results

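The genes described here mark the oligodendrocyte lineage, the glial cells that make myelin. Some mark stages before mature myelin, and others stay on in mature cells. They are 8 genes of 35976 in the deposited table, taken by symbol: Pdgfra and Cspg4 of precursor cells, Sox10, Olig1 and Olig2 of the whole lineage, and Gpr17, Bcas1 and Enpp6 of committed and newly formed cells. They were set against Mbp, the gene of myelin basic protein, a main protein of mature myelin. All 8 had counts in every one of the 7 libraries and all 8 passed the filter on low counts.

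RNA-seq libraries were made from cells isolated as neurons from the amygdala of male C57BL/6J mice, whose age the labels do not give. An adeno-associated virus (AAV) brought in the guide RNA, which was the control guide sgRosa for 4 libraries and the Nr2f2 guide sgNr2f2 for 3, and Cas9 was driven by the hSyn promoter. That promoter is active in neurons, so cells of the oligodendrocyte lineage were not the intended target of Cas9. Both groups had the same history: over 2 weeks of expression, 7 days of tube restraint, fear conditioning on 1 day, and extinction sessions on 3 days. No unstressed group is analysed here. Whether a library came from 1 mouse or a pool is not stated in the labels, so the p-values reflect only how far these libraries spread, which may be technical.

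Oligodendrocyte precursors persist in the adult brain and divide in response to platelet-derived growth factor (PDGF), which they sense through the receptor PDGFRα. A precursor that commits to differentiate loses Pdgfra and Cspg4, passes through a short stage marked by Gpr17, Bcas1 and Enpp6, and then makes myelin proteins such as MBP. Sox10, Olig1 and Olig2 encode transcription factors that stay on from precursor to mature cell.

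The libraries held 6266897 to 20928677 counts and 16364 to 19916 detected genes. sgRosa replicate 4 stood apart, with the lowest total, 1.47% of its counts from Mbp against 10.3 to 25.8% in the other 6 libraries, and 31551 CPM of erythroid markers against 1048.5 to 3060.9 CPM. CPM is the count scaled to a common library total, after correction of the totals by trimmed mean of M-values (TMM) factors. Against the neuron label, 12 neuron markers summed to 453.6 to 1551 CPM and 22 mature myelin genes to 23629 to 411070 CPM. The targeted gene Nr2f2 had 422, 305, 166 and 96 counts in the sgRosa libraries, in replicate order, and 196, 214 and 191 in the sgNr2f2 libraries, with a log2 fold change of -0.36 (SE 0.37, edgeR adjusted p = 0.905). A Cas9 edit need not lower a transcript count.

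The upstream sequences of Pdgfra and Olig2 are shown because these were the members with the lowest and the highest log2 fold change. RefSeq promoter windows on GRCm38.p6 were found for 4 of the 8 members. Each line gives the 250 bases before the start that the RefSeq promoter table uses, read 5′ to 3′ on the plus strand. For Pdgfra that start lies inside the span annotated for the gene. Capitals mark CANNTG, the E-box class of sites that basic helix-loop-helix proteins such as the OLIG factors can bind, and ACAAT or its reverse complement ATTGT, a core of sites bound by SOX proteins. No marked sites overlap.
Pdgfra, chr5:75152001-75152250: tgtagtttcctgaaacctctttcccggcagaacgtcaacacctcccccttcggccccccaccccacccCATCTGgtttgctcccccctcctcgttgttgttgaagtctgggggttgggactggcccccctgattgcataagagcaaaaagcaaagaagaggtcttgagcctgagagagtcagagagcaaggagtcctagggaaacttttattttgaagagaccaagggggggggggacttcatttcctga
Olig2, chr16:91225300-91225549: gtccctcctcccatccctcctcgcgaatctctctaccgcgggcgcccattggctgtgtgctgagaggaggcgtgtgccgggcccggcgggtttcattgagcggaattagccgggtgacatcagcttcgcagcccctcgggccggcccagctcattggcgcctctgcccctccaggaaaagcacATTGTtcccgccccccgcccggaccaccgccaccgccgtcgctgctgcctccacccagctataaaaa
The Pdgfra window holds 1 E-box and no SOX core, and the Olig2 window holds no E-box and 1 SOX core. Among 32851 RefSeq promoter windows of the same length, 66.2% hold an E-box and 27.7% a SOX core on either strand. These matches describe letters and not bound sites.

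The 8 genes differed in level by orders of magnitude. Per kilobase of exon (GENCODE M21 union exons), the median over the 7 libraries was 28922 CPM per kb for Mbp and 1147 CPM per kb for Bcas1. It was 63.5 for Olig1, 10.4 for Sox10, 5.18 for Olig2, 4.87 for Enpp6 and 1.57 for Gpr17. The precursor genes were lowest, at 0.518 CPM per kb for Cspg4 and 0.168 for Pdgfra. Within each library the order from Mbp through Bcas1, Olig1 and Sox10 to Olig2 was the same in 7 of 7 libraries. Neighbours lower down were less settled: Olig2 lay above Enpp6 in 5 of 7 libraries, Enpp6 above Gpr17 in 6 of 7 and Gpr17 above Cspg4 in 6 of 7. Cspg4 lay above Pdgfra in 7 of 7, although the ranges of these genes over the libraries overlapped. The annotation that the authors counted on is not given in the sources used here, so the lengths may differ from theirs.

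Comparing sgNr2f2 with sgRosa asks whether transcripts differ when Nr2f2 is targeted in neurons of stressed mice. None of the 8 members and not Mbp passed edgeR's quasi-likelihood test with Benjamini-Hochberg adjustment over all genes. Their adjusted p-values ran from 0.881 for Olig2 to 0.999 for Gpr17. Of all 14412 genes tested, 0 passed, which is 0%, 721 (5%) had an unadjusted p under 0.05, DESeq2 called 7 and limma-voom 0. None of the 8 members had an unadjusted p under 0.05 or groups that did not overlap, against 8.31% of all genes with groups that did not overlap. In the fit, 6 members lay on the higher side in sgNr2f2 and 2 on the lower, with a median log2 fold change of 0.22 against -0.11 for all genes. Of all genes tested, 43.8% lay on the higher side. With 4 and 3 libraries the exact two-sided permutation test over 35 splits cannot give a p below 0.0286. In these bulk libraries, fewer cells of a type and less of its RNA per cell cannot be told apart.

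**Figure D1:**
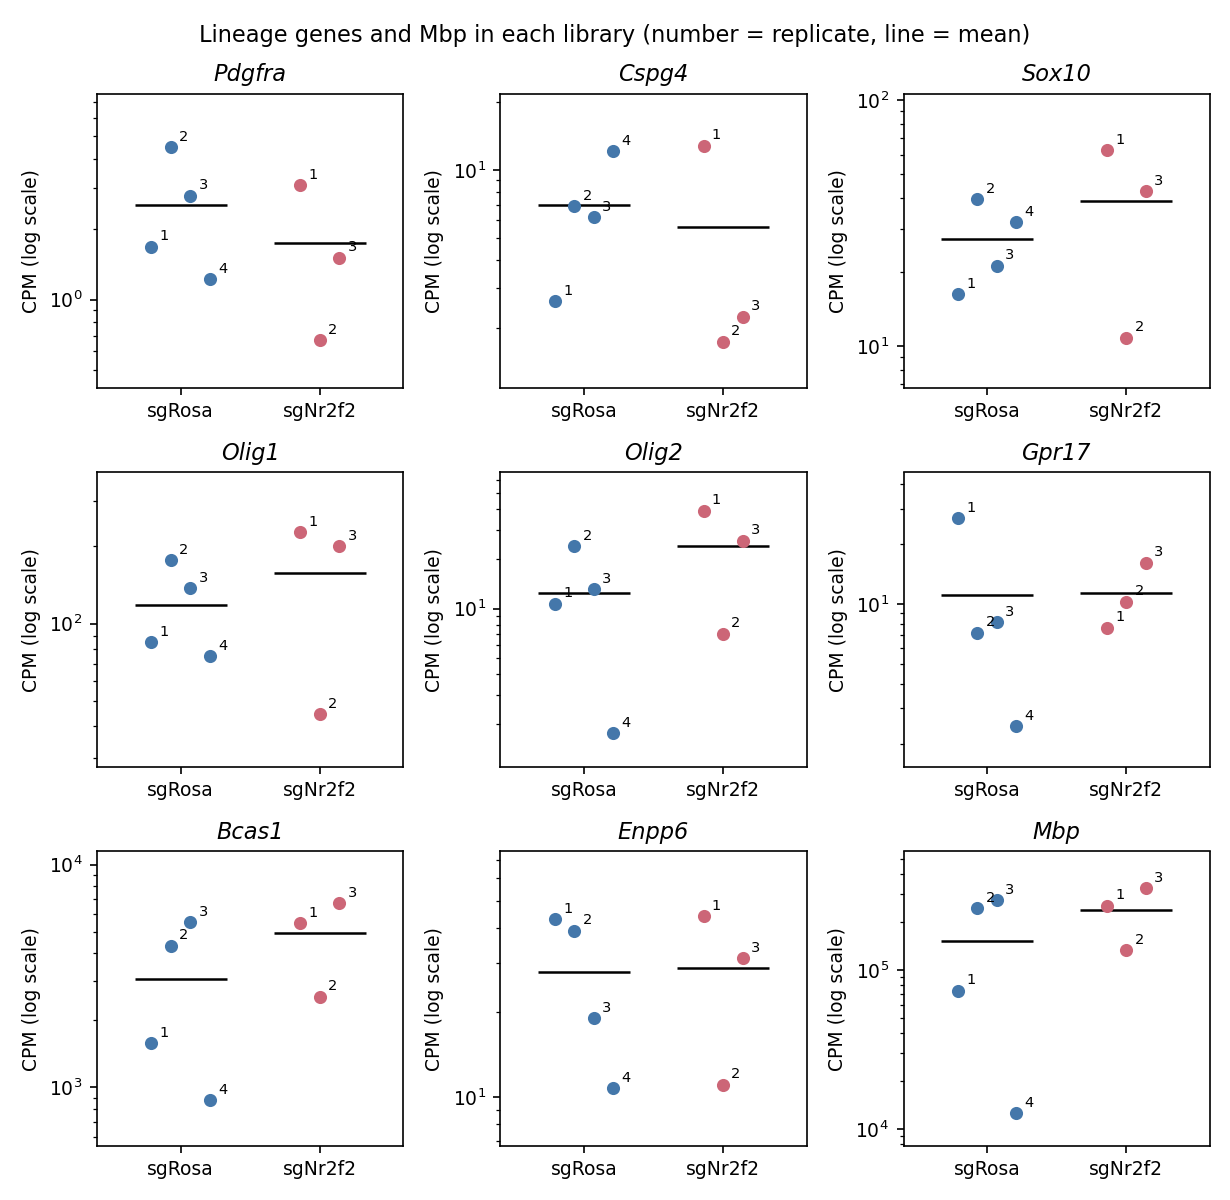
CPM of the 8 lineage genes and Mbp in each library on log axes, with sgRosa in blue, sgNr2f2 in red, the replicate number beside each point and a line at the group mean. The groups overlap in every panel, and sgNr2f2 replicate 2 lies lowest of its group for each gene other than Gpr17.

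**Figure D2:**
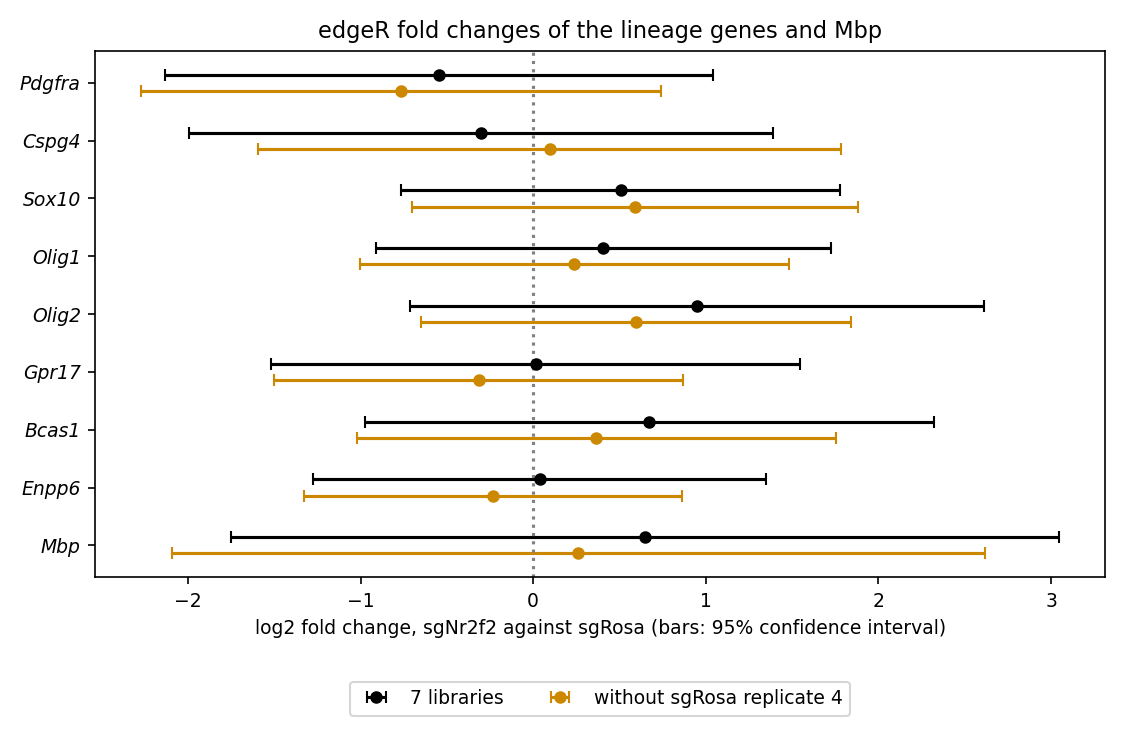
Log2 fold changes of sgNr2f2 against sgRosa from edgeR for the 8 lineage genes and Mbp, with 95% confidence intervals, over all 7 libraries (black) and without sgRosa replicate 4 (orange). Every interval includes 0 in both fits, and the widest interval over 7 libraries is that of Mbp, from -1.75 to 3.05.

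Of the precursor genes, Pdgfra was near the limit of what this depth resolves. Pdgfra encodes the receptor for PDGF-AA, which drives precursor division, and is on chromosome 5 (75151322 to 75198206, mm10). Its counts were 36, 83, 41 and 9 for sgRosa, in replicate order, and 51, 12 and 25 for sgNr2f2. It lay at 1.69, 4.49, 2.79 and 1.22 CPM in sgRosa and at 3.08, 0.672 and 1.51 CPM in sgNr2f2. The highest library was sgRosa replicate 2 and the lowest sgNr2f2 replicate 2, and the groups overlapped. The means were 2.55 ± 1.45 CPM (SD, n = 4) and 1.76 ± 1.22 CPM (SD, n = 3). The log2 fold change of Pdgfra was -0.55 (SE 0.72, 95% confidence interval -2.13 to 1.04, edgeR adjusted p = 0.925, exact permutation p = 0.457). It stayed negative in all 17 alternative fits, with -0.12 when sgRosa replicate 2 was left out, -0.16 when sgNr2f2 replicate 2 was and -1.23 when sgNr2f2 replicate 1 was. Counting error alone is 33.3% of the value at 9 counts.

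Cspg4 encodes the chondroitin sulfate proteoglycan NG2 on the surface of precursor cells (chromosome 9, 56865104 to 56899870). Its counts were 56, 128, 91 and 89 for sgRosa, in replicate order, and 212, 31 and 37 for sgNr2f2. It lay at 2.62, 6.92, 6.18 and 12.1 CPM in sgRosa and at 12.8, 1.74 and 2.24 CPM in sgNr2f2. The highest and the lowest values of all 7 libraries were both in sgNr2f2, in replicates 1 and 2. The means of Cspg4 were 6.96 ± 3.91 CPM (SD, n = 4) and 5.60 ± 6.26 CPM (SD, n = 3), a log2 fold change of -0.30 (SE 0.76, interval -1.996 to 1.39, edgeR adjusted p = 0.962). Cspg4 turned to 0.096 without sgRosa replicate 4, 0.13 without sgNr2f2 replicate 2 and 0.085 without sgNr2f2 replicate 3, and was -1.80 without sgNr2f2 replicate 1.

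Neither precursor gene belongs to precursors alone: fibroblasts of the meninges and vessels also express Pdgfra, and pericytes and vascular smooth muscle express Cspg4. Summed CPM of 10 pericyte and smooth muscle markers was 126.4, 420.1, 352.6 and 399.7 for sgRosa and 269.5, 85.6 and 104.1 for sgNr2f2. All 8 that were tested lay on the lower side (median log2 fold change -1.25, and -1.06 without sgRosa replicate 4, 0 called in both fits). sgRosa replicate 1 and sgNr2f2 replicates 2 and 3 had the 3 lowest sums, and the 3 lowest Cspg4 values. Single markers did not all follow the sum. In sgRosa replicate 4 the pericyte channel genes Kcnj8 and Abcc9 had 0 counts, while the pericyte gene Vtn was at its highest of the 7 libraries, with 63.7 CPM against 5.04 to 49.8 CPM. Kcnj8 had 9, 113 and 24 counts in the other sgRosa libraries and 21, 14 and 3 in sgNr2f2, and Abcc9 had 3, 48 and 15 and then 0 in each sgNr2f2 library. The smooth muscle actin gene Acta2 was at 304.05 CPM in sgRosa replicate 4, against 150.4 CPM or less in the others.

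Fibroblast markers other than Ptgds, which oligodendrocytes also express, had summed CPM of 29.1, 145.1, 46.3 and 29.0 for sgRosa and 19.1, 16.5 and 21.5 for sgNr2f2. sgRosa replicate 2 was highest both for Pdgfra and for these 9 markers, but the other libraries were not in the same order. sgNr2f2 replicate 1 was next highest for Pdgfra at 3.08 CPM and next to lowest for the markers, and sgRosa replicate 4 was next to lowest for Pdgfra and above each sgNr2f2 library for the markers. With Ptgds the sum of the 10 markers was 173.9 to 954.8 CPM for sgRosa and 115.1 to 508.6 CPM for sgNr2f2, and all 8 tested lay on the lower side, with 0 called (median log2 fold change -1.31, and -0.95 with 7 of 7 on the lower side without sgRosa replicate 4). The collagen gene Col1a2 had 37, 291, 53 and 9 counts in sgRosa and 39, 0 and 22 in sgNr2f2, so that its groups overlapped. Col1a1, another collagen gene, had its highest CPM in sgNr2f2 replicate 3, at 2.60. The part of mural cells and fibroblasts in the Pdgfra and Cspg4 counts was not tested.

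**Figure D3:**
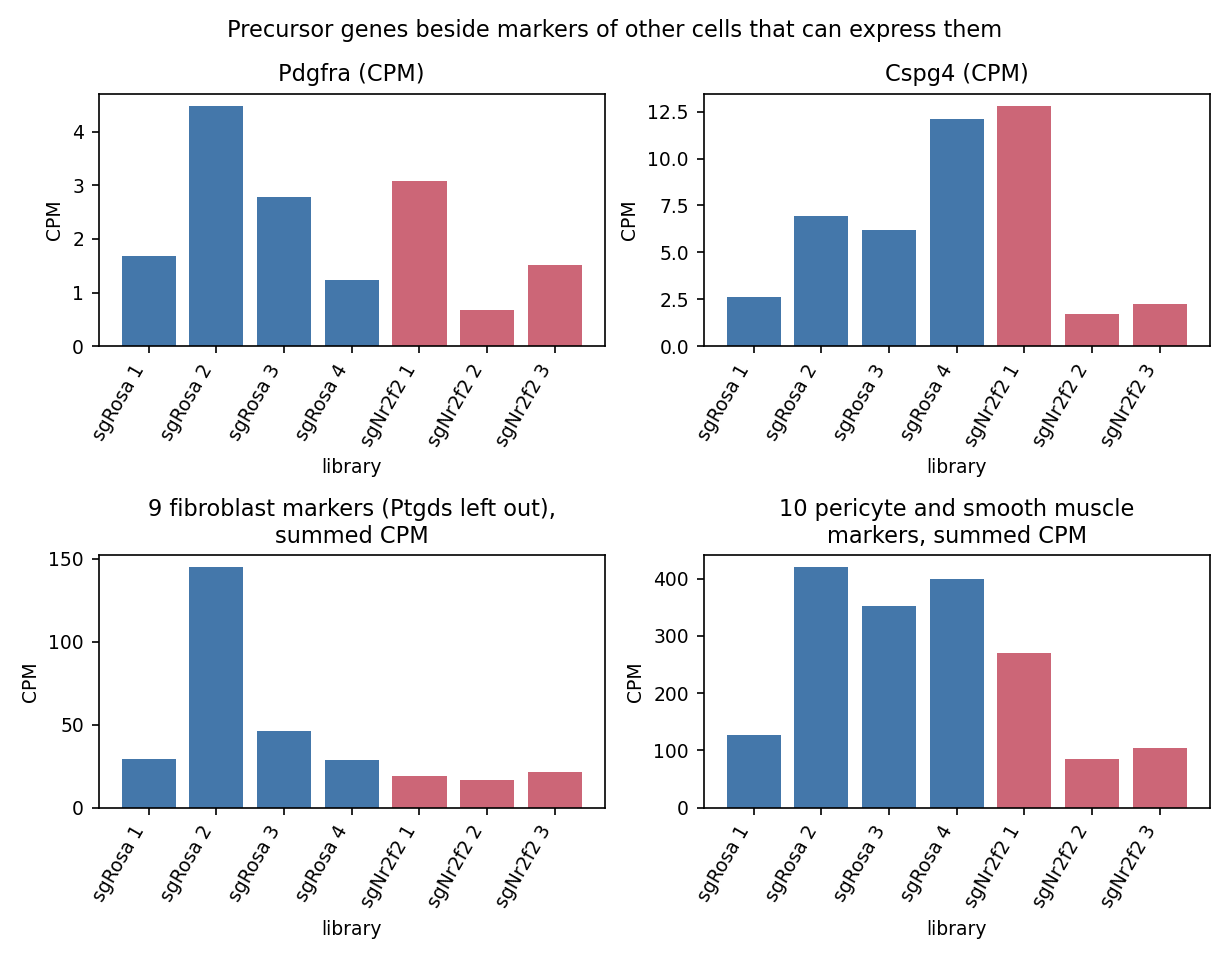
CPM of Pdgfra and Cspg4 in each library (top) and summed CPM of 9 fibroblast markers and of 10 pericyte and smooth muscle markers (bottom), with sgRosa in blue and sgNr2f2 in red. sgRosa replicate 2 is highest for Pdgfra and the fibroblast sum, and Cspg4 and the pericyte sum share their 3 lowest libraries, whereas sgNr2f2 replicate 1, at 3.08 CPM of Pdgfra and 12.8 CPM of Cspg4, is low for the fibroblast sum and in the middle for the pericyte sum.

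The lineage-wide transcription factor genes were at moderate levels and varied together across 6 of the libraries. Sox10, a SOX factor that turns on myelin genes (chromosome 15, 79154913 to 79164490), lay at 16.2, 39.6, 21.2 and 31.8 CPM in sgRosa and at 62.5, 10.8 and 42.7 CPM in sgNr2f2. Its means were 27.2 ± 10.5 CPM (SD, n = 4) and 38.7 ± 26.1 CPM (SD, n = 3). The highest and the lowest library were again sgNr2f2 replicates 1 and 2. The log2 fold change of Sox10 was 0.51 (SE 0.57, interval -0.76 to 1.78, edgeR adjusted p = 0.912) and became -0.034 without sgNr2f2 replicate 1.

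Olig1 and Olig2 encode related basic helix-loop-helix factors, of which Olig2 is needed to specify the lineage. They are neighbours on chromosome 16, with 41092 bases between the end of Olig2 (91225550 to 91228677) and the start of Olig1 (91269769 to 91271939). Olig1 lay at 85.1, 176.7, 137.4 and 74.9 CPM in sgRosa and at 227.2, 44.6 and 199.4 CPM in sgNr2f2, with means of 118.5 ± 47.5 CPM (SD, n = 4) and 157.1 ± 98.4 CPM (SD, n = 3). Its log2 fold change was 0.41 (SE 0.59, interval -0.91 to 1.72, edgeR adjusted p = 0.934).

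Olig2 lay at 10.7, 23.7, 13.1 and 1.77 CPM in sgRosa and at 39.1, 7.05 and 25.8 CPM in sgNr2f2. The sgRosa replicate 4 value rests on 13 counts and was the lowest of all 7 libraries. The means of Olig2 were 12.3 ± 9.03 CPM (SD, n = 4) and 24.0 ± 16.1 CPM (SD, n = 3), and the groups overlapped. Its log2 fold change of 0.95 was the highest of the 8 (SE 0.75, interval -0.71 to 2.61, edgeR adjusted p = 0.881, exact permutation p = 0.371). Leaving out sgRosa replicate 4 gave 0.59, sgNr2f2 replicate 1 gave 0.39 and sgRosa replicate 2 gave 1.48.

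Sox10 and Olig2 kept an almost fixed ratio of counts, although their CPM varied 5.79-fold and 5.55-fold over the same 6 libraries. Sox10 counts per Olig2 count were 1.515, 1.67 and 1.617 for the first 3 sgRosa replicates and 1.598, 1.532 and 1.66 for sgNr2f2. The SD of the log2 ratio over these 6 libraries was 0.058, below the 0.12 that counting error alone gives at these counts, and the smallest of the 28 pairs of members. sgRosa replicate 4 had 18 Sox10 counts per Olig2 count. The Olig1 to Olig2 ratio was 5.8 to 10.5 in the same 6 libraries and 42.3 in sgRosa replicate 4. In that library 13 Olig2 counts stood beside 234 of Sox10 and 550 of Olig1.

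**Figure D4:**
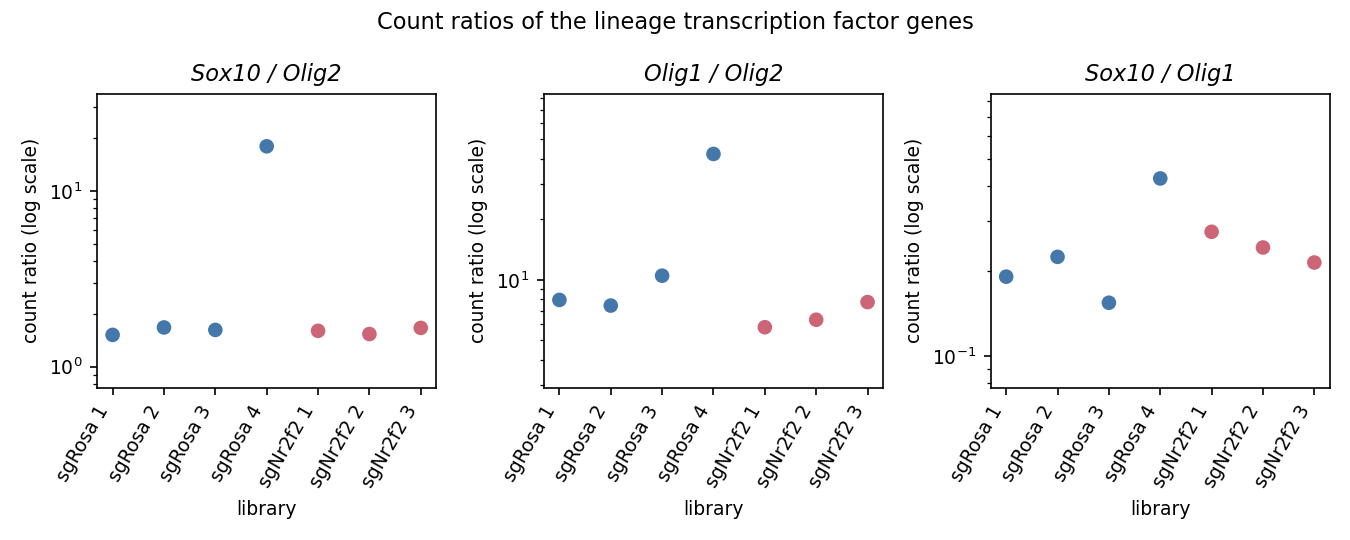
Ratios of deposited counts between Sox10, Olig1 and Olig2 in each library on log axes, with sgRosa in blue and sgNr2f2 in red. The Sox10 to Olig2 ratio lies between 1.515 and 1.67 in 6 libraries and at 18 in sgRosa replicate 4.

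The committed-stage genes did not behave alike. Gpr17, a receptor of the G protein-coupled class that marks cells between precursor and myelinating stage, lay at 26.9, 7.19, 8.15 and 2.45 CPM in sgRosa and at 7.62, 10.3 and 16.1 CPM in sgNr2f2. The highest library was sgRosa replicate 1 and the lowest sgRosa replicate 4, so the sgRosa values enclosed those of sgNr2f2. Its means of 11.2 ± 10.8 CPM (SD, n = 4) and 11.4 ± 4.36 CPM (SD, n = 3) gave a log2 fold change of 0.014 (SE 0.69, interval -1.52 to 1.54, edgeR adjusted p = 0.999), which was 0.92 without sgRosa replicate 1 and -0.32 without sgRosa replicate 4. Gpr17 lies inside the span of Lims2, which had 1334 to 6169 counts per library against 18 to 575 for Gpr17, and the strand setting of the counting is not given in the sources used here. How many Gpr17 counts could come from Lims2 was not tested. Lims2 was highest in sgRosa replicate 4, at 575.6 CPM, where Gpr17 was lowest.

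Enpp6, a choline phosphodiesterase gene that marks newly forming oligodendrocytes (chromosome 8, 46939197 to 47096762), lay at 42.9, 39.1, 19.1 and 10.8 CPM in sgRosa and at 44.0, 11.1 and 31.3 CPM in sgNr2f2. The means were 27.97 ± 15.5 CPM (SD, n = 4) and 28.8 ± 16.6 CPM (SD, n = 3). The log2 fold change of Enpp6 was 0.038 (SE 0.59, interval -1.27 to 1.35, edgeR adjusted p = 0.997), and its sign changed in 10 of 17 alternative fits.

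Bcas1 was the member with the most counts, 6434 to 111349 per library (chromosome 2, 170343973 to 170427911). Its protein marks early myelinating oligodendrocytes and stays in mature myelin. It lay at 1573.5, 4331, 5524 and 875.7 CPM in sgRosa and at 5438, 2552 and 6731 CPM in sgNr2f2, so that the 2 lowest libraries were sgRosa replicates 4 and 1. The means were 3076 ± 2211 CPM (SD, n = 4) and 4907 ± 2140 CPM (SD, n = 3), a log2 fold change of 0.67 (SE 0.74, interval -0.98 to 2.32, edgeR adjusted p = 0.91). It was 0.36 without sgRosa replicate 4 and 1.17 without sgRosa replicate 3. Mbp itself lay at 74017, 244940, 275078 and 12541 CPM in sgRosa and at 253815, 132321 and 326396 CPM in sgNr2f2. Its log2 fold change of 0.65 (SE 1.08, interval -1.75 to 3.05, edgeR adjusted p = 0.947) was 0.26 without sgRosa replicate 4.

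Each member was then set against Mbp in the same library, which asks whether these lineage genes varied with mature myelin RNA. Bcas1 tracked Mbp closely in the 6 libraries other than sgRosa replicate 4. Its reads per 1000 Mbp reads were 21.3, 17.7, 20.1 and 69.8 for sgRosa, in replicate order, and 21.4, 19.3 and 20.6 for sgNr2f2. Over the 6 libraries other than sgRosa replicate 4, the SD of the log2 ratio to Mbp was 0.10 for Bcas1, the 10th smallest among 9816 genes with a mean of at least 5 CPM. The structural myelin gene Mobp had 0.063 and ranked 3rd. Other mature myelin genes varied more against Mbp, with an SD of 0.66 for Cnp and 0.72 for Mog.

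Over the 6 libraries other than sgRosa replicate 4, the transcription factor genes followed Mbp less tightly than Bcas1 did. Olig1 had 1.15, 0.721, 0.499 and 5.97 reads per 1000 Mbp reads in sgRosa and 0.895, 0.337 and 0.611 in sgNr2f2. Olig2 had 0.145, 0.0969, 0.0477 and 0.141 in sgRosa and 0.154, 0.0533 and 0.0789 in sgNr2f2. For Olig2 the sgRosa replicate 4 value lay within the range of the other 6 libraries, as it did for Gpr17. Both genes had their lowest CPM in that library, but so did Bcas1 and Enpp6, whose ratios to Mbp were highest there. Over the 6 libraries the SD of the log2 ratio to Mbp was 0.63 for Olig1, 0.70 for Sox10 and 0.71 for Olig2. Over all 7 libraries the SD was 1.34 for Olig1 and 1.71 for Sox10. For Olig2 it was then 0.71, close to the 0.69 of Bcas1.

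Among the 8 members, precursor and early committed genes varied most against Mbp over the 6 libraries other than sgRosa replicate 4. Pdgfra had 0.0228, 0.0183, 0.0101 and 0.0977 reads per 1000 Mbp reads in sgRosa and 0.0122, 0.00508 and 0.00463 in sgNr2f2. sgNr2f2 replicates 2 and 3 were thus below each sgRosa library, and sgNr2f2 replicate 1 lay between sgRosa replicates 3 and 2. Cspg4 had 0.0354, 0.0283, 0.0225 and 0.966 in sgRosa and 0.0505, 0.0131 and 0.00685 in sgNr2f2. Gpr17 ran from 0.0294 in sgRosa replicate 2 to 0.364 in sgRosa replicate 1, and Enpp6 from 0.0694 in sgRosa replicate 3 to 0.857 in sgRosa replicate 4. For Gpr17 the SD of the log2 ratio over the 6 libraries was 1.42, the highest of the 8 members, and for Enpp6 it was 1.113. By rising SD, Cspg4 ranked 6364th, Enpp6 7302nd and Gpr17 9361st among the 9816 genes. Mature myelin genes were spread too, with an SD of 1.045 for Fa2h and 0.66 for Cnp, so a wide spread was not particular to the earlier stages. Summed, Pdgfra and Cspg4 had 0.0582, 0.0466, 0.0326 and 1.064 reads per 1000 Mbp reads in sgRosa and 0.0627, 0.0182 and 0.0115 in sgNr2f2.

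**Figure D5:**
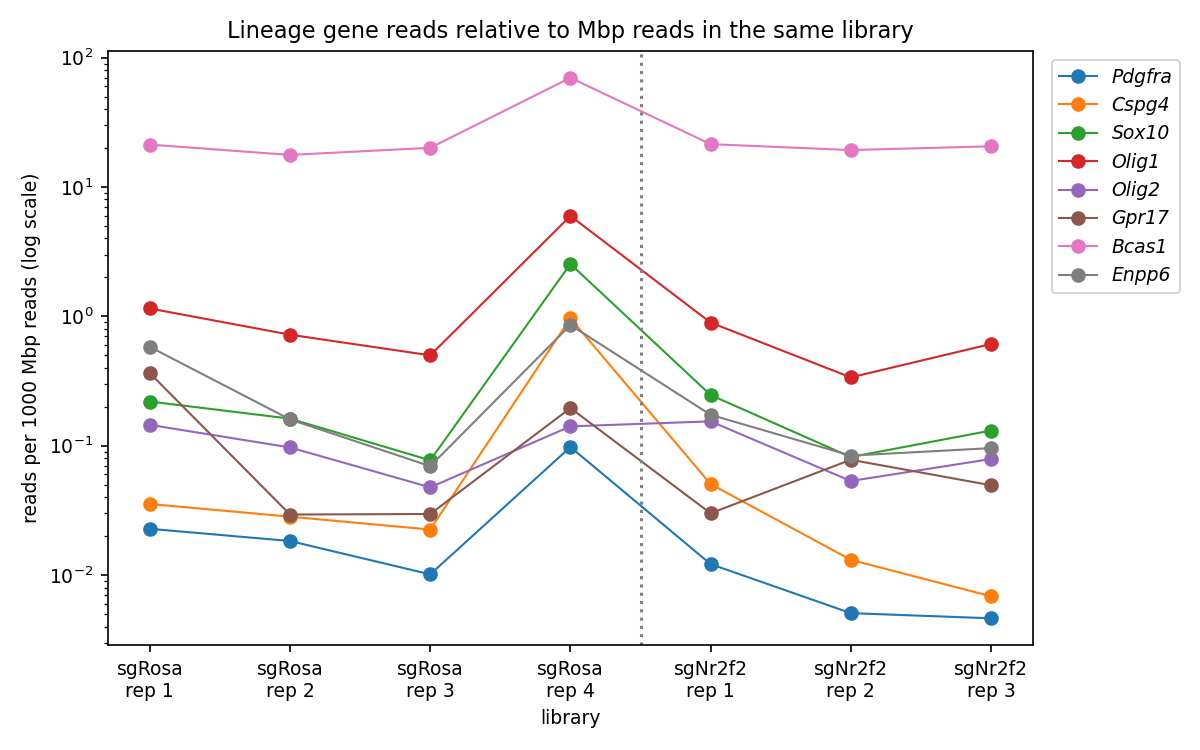
Reads of each lineage gene per 1000 Mbp reads in the same library, on a log axis, with lines that only join the values of a gene and a dotted line between the groups. Bcas1 lies between 17.7 and 21.4 in 6 libraries, and in sgRosa replicate 4 each gene other than Olig2 and Gpr17 is at its highest.

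With the Mbp count as the library size, no member differed between the groups in edgeR's test adjusted over 14411 genes. Adjusted p-values ran from 0.229 for Cspg4 to 0.908 for Olig2. In this fit 0 genes passed (0%), with 3080 (21.4%) at an unadjusted p under 0.05, all on the lower side, and the median of all genes was -2.23. DESeq2 with the same scaling called 75 genes and limma-voom 0, with no member among them. Cspg4 was the only member with an unadjusted p under 0.05 (log2 fold change relative to Mbp -3.45, SE 1.63, exact permutation p = 0.343). All 8 members lay on the lower side, with a median of -1.79, which is nearer to 0 than the median of all genes.

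The medians relative to Mbp rested largely on sgRosa replicate 4, whose Mbp count was 92143 against 1580964 to 5399228 in the others. Without that library the median of all genes was -0.57 and that of the members -0.32, and 0 members were called. Bcas1 then had 0.055 relative to Mbp (SE 0.34, interval -0.64 to 0.76), Sox10 0.0038 (SE 0.81), Olig2 -0.012 (SE 0.83) and Olig1 -0.36 (SE 0.70). Pdgfra had -1.22 (SE 1.00, interval -3.28 to 0.85), Gpr17 -1.42 (SE 0.97), Enpp6 -1.20 (SE 0.86) and Cspg4 -0.28 (SE 0.93), with edgeR adjusted p-values from 0.943 to 0.958 for these 4. Over all 7 libraries they had -2.22, -1.55, -1.82 and -3.45, in the same order. Gpr17 moved more when sgRosa replicate 1 was left out, to -0.63.

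Other genes of the lineage were read from lists, none of whose members passed edgeR's adjusted test in either direction. Of 15 tested precursor-enriched genes, 12 lay on the lower side with a median log2 fold change of -0.71. All genes had a median of -0.11, with 43.8% on the higher side. Without sgRosa replicate 4, 8 of the 15 lay on the lower side, with a median of -0.12. All genes then had a median of -0.033, with 47.5% on the higher side. The lists below have the same backgrounds. Some lists of other cells also lay lower over the 7 libraries: 10 of 12 neuron (median -0.67), 6 of 10 astrocyte (median -0.66) and 6 of 6 erythroid markers (median -2.40). Their medians were -0.25, -0.57 and -0.74 when sgRosa replicate 4 was left out. Endothelial (4 of 8 lower, median -0.012), ependymal and choroid plexus (2 of 4, median -0.025) and microglia markers (6 of 9, median -0.083) had medians nearer to 0. As lists of some other cells lay lower too, nothing particular to precursors was read from the count. Ptprz1, a receptor-type phosphatase gene, lay at 14.7, 12.3, 11.96 and 17.8 CPM in sgRosa and at 9.13, 5.09 and 5.38 CPM in sgNr2f2 (log2 fold change -1.12, SE 0.42, edgeR adjusted p = 0.868). Each sgNr2f2 library was below each sgRosa library for Ptprz1, which astrocytes also express. Of all genes, 8.31% had groups that did not overlap. Ptprz1 and the other genes named from the lineage lists were picked by small p in these data. Separated groups thus follow partly from the choice and give no separate support. Lhfpl3 had -0.78 (SE 0.46), Megf11 -0.82 (SE 0.60) and Vcan, the versican gene, -0.81 (SE 0.63). Lims2, which is in this list, had 72.1 to 575.6 CPM of its summed 126.05 to 693.03 CPM.

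Of 14 genes of committed and newly formed cells, 10 lay on the higher side, with a median of 0.14. Of all genes, 43.8% lay on that side, with a median of -0.11. Without sgRosa replicate 4 it was 9 of 14, with a median of 0.089. Bmp4, a growth factor gene of committed precursors, lay at 5.24, 4.43, 0.543 and 4.63 CPM in sgRosa and at 1.03, 0.616 and 0.423 CPM in sgNr2f2 (log2 fold change -2.42, SE 0.82, edgeR adjusted p = 0.868). The groups overlapped only through sgRosa replicate 3. Rras2, a RAS-related GTPase gene, lay at 11.5 to 14.8 CPM in sgRosa and at 22.3 to 34.7 CPM in sgNr2f2 (1.04, SE 0.36, edgeR adjusted p = 0.868), and its groups did not overlap. Groups did not overlap for 8.31% of all genes, and Rras2 was picked by its small p. Tmem163, a zinc transporter gene, had a log2 fold change of 1.41 (SE 0.58).

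Of 16 lineage transcription factor genes, 11 lay on the higher side, against 43.8% of all genes, with a median of 0.18. Without sgRosa replicate 4 these were 8 of 15 and the median was 0.011. Tcf7l2, a Wnt-pathway factor of newly differentiating cells, lay at 81.2, 78.8, 54.8 and 41.4 CPM in sgRosa and at 146.1, 89.7 and 119.5 CPM in sgNr2f2 (0.89, SE 0.43, edgeR adjusted p = 0.868), with no overlap. It too was picked by its small p. Id2, an inhibitor of differentiation, had -1.13 (SE 0.47), Sox6 -1.13 (SE 0.58) and Sox9 -1.01 (SE 0.64).

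In the PDGF pathway, the 4 tested ligand genes lay on the higher side and the only other receptor gene tested on the lower. The median of these 5 genes was 0.54. When sgRosa replicate 4 was left out, 3 of the 5 lay on the higher side, with a median of 0.27. Pdgfa, whose product is the main ligand of PDGFRα, lay at 27.97 ± 7.86 CPM in sgRosa (SD, n = 4) and 40.9 ± 9.10 CPM in sgNr2f2 (SD, n = 3), with a log2 fold change of 0.55 (SE 0.40, edgeR adjusted p = 0.871). Pdgfb had 0.58 (SE 0.41), Pdgfc 0.54 (SE 0.61) and Pdgfd 0.14 (SE 0.80). Of 22 mature myelin genes, Mbp included, 20 lay on the higher side with a median of 0.47, and 16 with a median of 0.12 without sgRosa replicate 4. Of all genes, 43.8% lay on that side, and 47.5% without sgRosa replicate 4. The leading members other than Mbp were Mal at 0.79 (SE 0.52), Trf, the transferrin gene, at 0.93 (SE 0.87), Cnp at 0.83 (SE 0.79) and Fa2h at 0.94 (SE 0.92). Of 7 tested cell cycle genes 4 lay on the lower side, and 5 without sgRosa replicate 4. Top2a was at 5.71 CPM in sgRosa replicate 1 and at 0 in sgNr2f2 replicates 1 and 2.

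The genes whose log2 CPM followed each member most closely over the 7 libraries differed by member. They were taken among 9810 genes with a mean of at least 5 CPM, and the correlations are descriptions of libraries that differ in depth and composition. Olig2 was closest to the myelin enzyme gene Cnp (Pearson r = 0.998), then Tmeff2 and Ralgds. Bcas1 was closest to Map2k7 (r = 0.997), Mobp (r = 0.995) and Wdr13. Sox10 followed Cobl (r = 0.995), the lipid transporter gene Abca2 (r = 0.989) and 2810468N07Rik, and Olig1 followed Gamt (r = 0.998), the glycine transporter gene Slc6a9 (r = 0.987) and Pcyt1b.

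The precursor and early committed genes had other neighbours. Gpr17 was closest to the Notch ligand gene Dll4 (r = 0.976), Znrd1 and Sema4a, and Enpp6 to Btbd3 (r = 0.978), Ppp1r35 and Igsf9b. Cspg4 was closest to Mpv17l2 (r = 0.985), Fstl1 and Ankrd26. Pdgfra was closest to Ccdc66 (r = 0.964), Fopnl and Inpp4b. Without sgRosa replicate 4 the correlations of all these 24 pairs ran from 0.902 for Gpr17 with Sema4a to 0.998 for Olig1 with Gamt. The pairs were picked as the highest over libraries that include these, so high values follow from the choice and give no separate support. What the highest of so many candidates would reach without any link was not tested.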

How the data were processed

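The deposited values were whole-number counts per gene with no normalization, and 7 single-library files repeated the table of the series. Per the submitters' processing notes, the build was mm10, and the tools named, with no role stated, include featureCounts 2.0.1, STAR 2.7.5c, fastp 0.23.2 and edgeR 3.42.4. The annotation and the strand setting were not given in the sources used here, so overlapping genes can share reads. Library input was 5 ng of RNA, per the labels. No molecular identifiers are named, so counting errors cover counting only.

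Groups came from the sample titles. Genes were tested with edgeR 4.0.16 in R 4.3.3 (quasi-likelihood, TMM factors, its filter on low counts, 14412 genes kept, group as the only term, threshold 0.05). The fit relative to Mbp used the Mbp count of a library as its size. Log2 CPM used a prior count of 2, and permutation tests of ratios added 0.5 to counts. DESeq2 1.42.0 and limma 3.58.1 (voom) were alternatives. The fits were also run on simulated counts with known changes. Recovery of those changes was required only of edgeR at a fixed spread, not at the spread of these libraries.

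The members and lists were chosen with earlier results of these data known. The genes named are the 8 members, Mbp and Nr2f2, up to 4 genes of smallest p from each lineage list, up to 2 genes of highest mean CPM from each marker list, and the 3 genes closest in pattern to each member, less any that is not reported here. Lims2, Kcnj8, Abcc9, Vtn, Col1a1, Col1a2, Mog and Mobp (as a myelin gene) were named after their values were seen, as was the pair ratio of Sox10 and Olig2. Exon lengths came from GENCODE M21, and coordinates and promoters from RefSeq on GRCm38.p6.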

Additional observations from a re-analysis of the deposited data

Results flagged for a closer look

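In sgRosa replicate 4, 5 members lay far above the other 3 sgRosa libraries relative to Mbp, by the ratio of the gap to the whole range of the group, tested for CPM of the 8 members and Mbp and for the 8 ratios to Mbp (17 sets of 4 values). Chance alone would set apart about 5% of such sets if their values were normally distributed, which CPM and ratios need not be. The ratios share the same low Mbp count of 92143. Pdgfra had 0.0977 reads per 1000 Mbp reads there, against 0.0228 in the next library. Cspg4 had 0.966 against 0.0354 in the next library, the widest gap of the 5. Sox10 had 2.54 against 0.219, Olig1 5.97 against 1.15 and Bcas1 69.8 against 21.3. For Olig2, Gpr17 and Enpp6 and for the CPM values of all 8 members and Mbp, no library was set apart in this way. The low Mbp share of that library, 1.47%, and its erythroid markers are given with the description of the libraries, and their part in these ratios was not tested.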

How the results depend on the processing

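No member and not Mbp passed the adjusted threshold in any fit run, so the alternatives bear on directions and sizes. Bcas1, Olig2 and Mbp stayed on the higher side and Pdgfra on the lower side in all 17 alternatives each. Gpr17 and Enpp6 changed sign with upper-quartile factors (-0.070 and -0.040), library size alone (-0.39 and -0.29), no low-count filter (-0.058 and -0.021) and the replicate block (-0.070 and -0.33). Over the fits that left out 1 library, Pdgfra ran from -1.23 to -0.12, Cspg4 from -1.80 to 0.13, Sox10 from -0.034 to 0.95, Olig1 from 0.028 to 0.85, Olig2 from 0.39 to 1.48, Gpr17 from -0.33 to 0.92, Bcas1 from 0.36 to 1.17, Enpp6 from -0.42 to 0.43 and Mbp from 0.26 to 1.16. The median of all genes was -0.33 with library size alone and -0.11 with TMM factors, and that of the members -0.055 and 0.22. In fits without sgRosa replicate 4 that were added after the data were seen, Cspg4, Gpr17 and Enpp6 had 0.11, -0.28 and -0.20 with DESeq2, and Olig1, Gpr17 and Enpp6 had -0.0098, -0.16 and -0.36 with limma-voom, which put 3 members on the higher side. DESeq2 called 7 genes over 7 libraries and 372 without that library, against 0 with edgeR and limma-voom.

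Relative to Mbp, Olig2 and Bcas1 changed sign when the other mature myelin genes set the scale (0.30 and 0.11) or Mog did (0.56 and 0.62), and Bcas1 with the replicate block (0.058). Over the fits that left out 1 library, values relative to Mbp ran from -2.82 to -1.22 for Pdgfra, -4.69 to -0.28 for Cspg4, -2.81 to 0.0038 for Sox10, -2.14 to -0.36 for Olig1, -0.69 to 0.12 for Olig2, -1.95 to -0.63 for Gpr17, -0.86 to 0.055 for Bcas1 and -2.21 to -1.20 for Enpp6. Without sgRosa replicate 4, Sox10 and Bcas1 had 0.0041 and 0.055 with DESeq2. Sox10, Olig2 and Bcas1 had 0.026, 0.030 and 0.077 with limma-voom, 0.22, 0.23 and 0.36 when scaled to Mog and 0.14, 0.12 and 0.18 when scaled to the other myelin genes. Genes called relative to Mbp numbered 0 over 7 libraries, 1 when scaled to Mog (2 without sgRosa replicate 4), 75 with DESeq2 (15 without that library), 1 with the replicate block and 0 to 2 when 1 library was left out. The log2 difference of summed Pdgfra and Cspg4 against Mbp was -2.06, and ran from -2.77 to -0.92 with 1 library left out. The cause of these changes was not tested. Same-numbered libraries of the groups deviated with correlations of -0.20, -0.26 and 0.09, so the numbers were not read as pairs, and the block left the count of calls over library totals at 0. At 9 to 83 counts, depth limits Pdgfra most.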

Other observations

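Marker sums of cells outside the lineage also varied by library. The summed CPM of 8 endothelial markers was 2036 to 5022 for sgRosa and 2354 to 5358.5 for sgNr2f2, led by Slco1a4, an organic anion transporter gene, and Flt1, a VEGF receptor gene. The 10 astrocyte markers summed to 495.1 to 2528 CPM and 1064 to 1800.5 CPM, led by S100b and Aldoc. S100b is also expressed by oligodendrocytes. The 10 microglia markers reached 20.7 to 39.4 CPM and 26.7 to 36.3 CPM. Syt1, a synaptic vesicle gene, led the neuron markers at 232.8, 73.8, 121.3 and 556.9 CPM in sgRosa and 134.3, 74.2 and 105.9 CPM in sgNr2f2. The choroid plexus gene Ttr lay at 5.52, 858.7, 4.28 and 60.3 CPM in sgRosa and 482.0, 108.2 and 55.7 CPM in sgNr2f2, so that the ependymal and choroid plexus sum ran from 8.52 to 903.0 CPM. The 5 genes listed as Schwann cell markers had sums of 2.86 to 21.6 CPM for sgRosa and 12.6 to 12.9 CPM for sgNr2f2. They were led by Cdh19, at 0.681 to 18.2 CPM, and Sox2, at 0.784 to 2.81 CPM. Of the 5, 1 had no count in any library. The sums were not read as a measure of peripheral myelin.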
